A study of Homo sapiens with 11 samples.

Results

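The expression and splicing of 39 glycolysis and hypoxia genes were examined in HCC78, a lung adenocarcinoma cell line that carries an SLC34A2-ROS1 fusion and an endogenous U2AF1 S34F allele. The genes were taken by name out of the 57773 genes of the expression table, and they cover glucose and lactate transport, the enzymes of glycolysis, the fate of pyruvate, oxygen sensing and further targets of hypoxia. U2AF1 is the subunit of the U2 auxiliary factor that recognises the AG at the 3′ end of introns, and S34F is its recurrent substitution in lung cancer. Of the 39 genes, 36 had a mean of at least 1 FPKM (fragments per kilobase of transcript, scaled to the mapped fragments) over the 9 RNA-Seq libraries and were tested among 15179 genes, and CA12, ADM and ANGPTL4 did not pass this filter.

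The 9 libraries fell into 5 groups, all grown in the same medium with serum. WT dox+ (2 libraries) and S34F dox+ (2) were stable subclones of HCC78 carrying a doxycycline-inducible lentiviral U2AF1 with FLAG and HA tags, wild-type or S34F, with doxycycline. WT dox- (2) and S34F dox- (1 library, numbered 2) were the same lines without it. The parental group (2) was untransduced HCC78, labelled as without doxycycline, although the study's expression table lists it as with doxycycline. Since every library carried the endogenous allele, the labels give a share of S34F in U2AF1 transcripts of 28% to 33% without induction, with 12% and 14% for the WT dox+ libraries and 62% and 65% for S34F dox+. Doxycycline and the induced U2AF1 cannot be told apart, and nothing states that the replicates were separate cultures, so p-values measure the spread between these libraries only.

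U2AF1 stood at 278 and 299 FPKM in WT dox+, at 164 and 223 FPKM in S34F dox+ and at 103 to 115 FPKM in the others. The 2 induced groups thus also differed in total U2AF1. Epithelial markers of the line were high in every library (EPCAM 407 to 545 FPKM, KRT7 2873 to 4196 FPKM). Of the lung markers, NKX2-1 was at 49.05 to 67.8 FPKM and SLC34A2 at 40.1 to 166 FPKM. NAPSA, at 1.73 to 9.97 FPKM, and SFTPB, at most 2.05 FPKM, were low. Of the markers of other cells, PTPRC, CD3E, VWF, COL1A2 and DCN were at most 2.71 FPKM, COL1A1 was 2.83 to 7.0 FPKM and CD68 was 13.5 to 34.4 FPKM. PECAM1 had no entry under this name. The dox+ libraries listed more genes at 1 FPKM or above (15736 to 20896) than the other 5 libraries (13661 to 14688). How many reads each library held cannot be read from these values.

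Glycolysis splits glucose into pyruvate in the cytosol, and lactate dehydrogenase and the monocarboxylate transporters then turn the pyruvate into lactate and export it. The transcription factor HIF1A, which prolyl hydroxylases mark for degradation while oxygen is present, raises most of these genes under hypoxia by binding hypoxia response elements, whose core reads ACGTG or GCGTG. Lung adenocarcinoma cells, like many tumor cells, are known for running glycolysis also in oxygen, and carbonic anhydrase CA9 is a standard marker of HIF activity.

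To show where these cores lie, RefSeq promoter windows (GRCh38.p14, 250 bases before to 50 after a start) were searched for ACGTG and GCGTG on both strands, so that CACGTG counts on either strand. Windows were found for 33 of the 39 genes, 60 windows in all, which partly overlap within a gene. ACGTG lay in 41.7% of the members' windows against 21.4% of the 35116 windows of all genes, GCGTG in 40.0% against 36.5%, and either in 68.3% against 48.4%. Of the 33 genes, 31 had either core in at least 1 window, and EGLN3 and PGAM1 had none. This count by gene cannot be set against the 48.4%, which is a share of windows. Genes with several windows have more chances of a match, and the share by gene over all genes was not computed. A match is a stretch of letters and not a bound site. The 250 bases before the start are shown for 5 genes with a single window, with matches in capitals. They are the glycolytic genes PGK1 (chrX:78103998-78104247, plus strand), ENO1 (chr1:8878687-8878936, minus strand) and PKM (chr15:72231191-72231440, minus strand), which were lower in every dox+ library than in every dox- library, ANKRD37 (chr4:185396591-185396840, plus strand), which was higher in every dox+ library, and CA9 (chr9:35673678-35673927, plus strand), which was higher in the parental line.
PGK1: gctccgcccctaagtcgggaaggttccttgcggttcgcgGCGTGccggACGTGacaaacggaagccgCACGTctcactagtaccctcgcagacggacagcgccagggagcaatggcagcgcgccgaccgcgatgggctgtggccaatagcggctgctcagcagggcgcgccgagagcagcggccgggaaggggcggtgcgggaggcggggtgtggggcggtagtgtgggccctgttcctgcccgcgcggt
ENO1: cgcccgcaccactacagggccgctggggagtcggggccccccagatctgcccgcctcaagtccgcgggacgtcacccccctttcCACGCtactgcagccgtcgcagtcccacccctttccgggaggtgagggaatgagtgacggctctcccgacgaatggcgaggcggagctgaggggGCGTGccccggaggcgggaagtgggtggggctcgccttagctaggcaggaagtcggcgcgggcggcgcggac
PKM: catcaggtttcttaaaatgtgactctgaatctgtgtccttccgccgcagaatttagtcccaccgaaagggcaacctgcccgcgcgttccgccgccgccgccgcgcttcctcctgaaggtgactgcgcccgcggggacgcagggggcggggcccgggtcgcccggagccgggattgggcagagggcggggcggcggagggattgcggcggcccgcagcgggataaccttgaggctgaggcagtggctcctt
ANKRD37: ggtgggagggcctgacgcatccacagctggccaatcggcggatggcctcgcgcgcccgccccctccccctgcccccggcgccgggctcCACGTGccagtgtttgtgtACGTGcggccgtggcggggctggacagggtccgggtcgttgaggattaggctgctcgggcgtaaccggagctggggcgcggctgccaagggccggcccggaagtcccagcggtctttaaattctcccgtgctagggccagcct
CA9: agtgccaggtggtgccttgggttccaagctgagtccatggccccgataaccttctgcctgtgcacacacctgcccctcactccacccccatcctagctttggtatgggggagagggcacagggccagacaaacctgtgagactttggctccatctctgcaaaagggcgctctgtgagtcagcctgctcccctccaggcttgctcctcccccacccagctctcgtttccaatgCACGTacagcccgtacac
PGK1 held 3 matches, ENO1 and ANKRD37 held matches at 2 places each, CA9 held 1 close to the start, and PKM held none in these 250 bases.

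The first question was what induction of U2AF1 with doxycycline did to these genes, and it was asked as the mean of the differences within the WT line and within the S34F line. Many glycolytic enzymes had lower levels with doxycycline, and 13 of the 36 genes tested (36.1%) had all 4 dox+ libraries below all 3 dox- libraries, against 9.76% of all genes tested. These were HK1, GPI, PFKP, ALDOA, TPI1, PFKFB3, GAPDH, PGK1, PGAM1, ENO1, PKM, LDHA and LDHB. In the other direction PFKFB4 and ANKRD37 had all 4 dox+ libraries above the 3 dox- libraries, against 15.2% of all genes, and with median-ratio scaling 1 of them, ANKRD37, still did. In limma-trend with Benjamini-Hochberg adjustment, no member passed an adjusted p of 0.05, against 1.09% of all genes lower and 2.79% higher. At an unadjusted p under 0.05, 12 members were lower (background 9.22%) and 3 higher (background 15.9%). The median log2 difference of FPKM + 1 was -0.12 over the members and 0.08 over all genes tested.

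**Figure D1:**
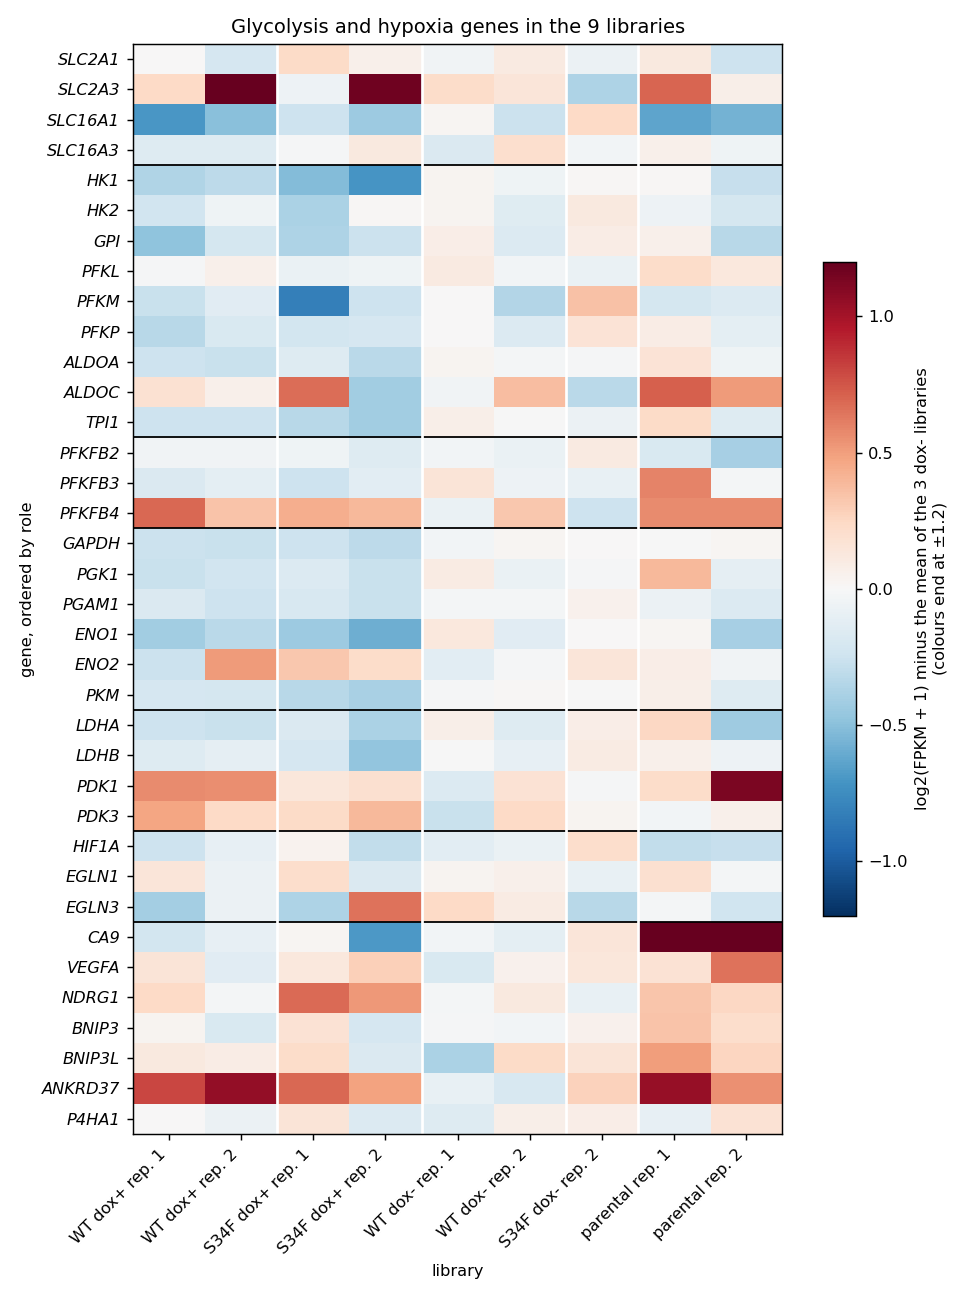
Level of the 36 members tested (rows, ordered by role and divided by black lines) in each of the 9 libraries (columns), as log2(FPKM + 1) minus the mean of the 3 dox- libraries. Blue cells run through most rows of upper and lower glycolysis in the 4 dox+ columns, while CA9 is deep red in the 2 parental columns.

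Lower levels with doxycycline were also common among abundant transcripts in general. Of the 1120 genes tested with a mean of at least 100 FPKM, 32.8% had all dox+ libraries below all dox- libraries, and of the 12 members at this level 10 did. The median log2 difference was -0.27 over these 12 members and -0.14 over the 1120 genes. Over the 24 members tested with a mean under 100 FPKM it was 0.009. With FPKM rescaled to the sum of protein-coding genes, 8 members lay lower without overlap, against 5.33% of all genes, and 4 (PDK1, PDK3, PFKFB4 and ANKRD37) lay higher, against 20.4%. At an unadjusted p under 0.05, 5 members were then lower, against 4.73% of all genes, and 4 higher, against 21.0%. The 13 members named above, whose choice fixed their direction under the deposited scaling, also had a log2 difference below 0 under 4 other scalings (median-ratio, quantile, TPM and the protein-coding sum). Between these scalings the median over all genes moved from -0.04 under quantile normalization to 0.15 with the protein-coding sum. The summed FPKM of the 39 members was 1.30% to 1.38% of the protein-coding total in dox+, 1.498% to 1.58% in dox- and 1.42% to 1.66% in the parental line. The part that the larger number of detected genes in dox+ libraries has in these differences was not tested.

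**Figure D2:**
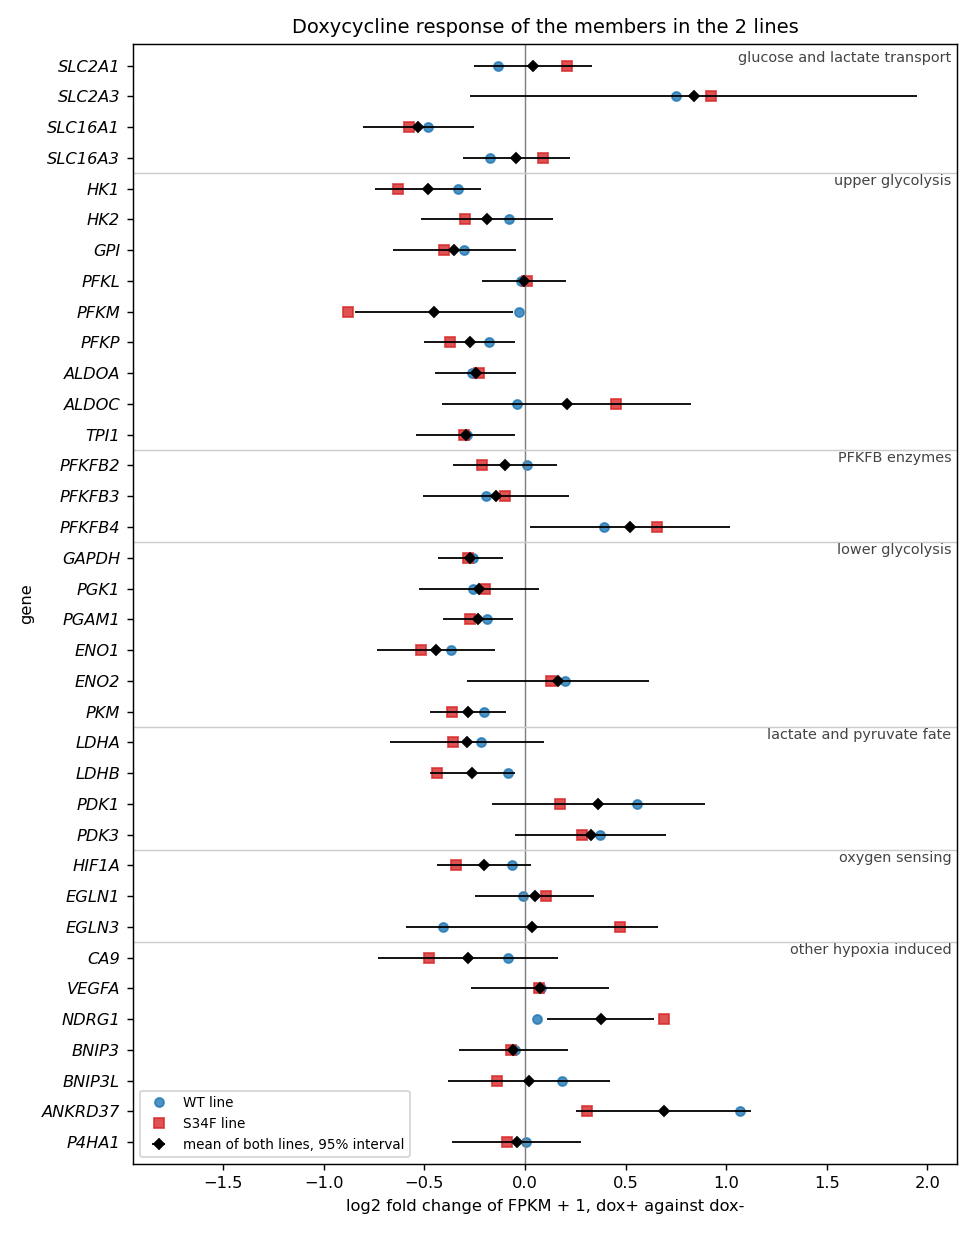
Log2 fold change of FPKM + 1 with against without doxycycline (x axis) for each member tested (y axis), in the WT line (circles), in the S34F line (squares) and as the mean of both lines (diamonds, bars are 95% intervals). Most enzymes of upper and lower glycolysis lie left of 0 in both lines, and the diamonds of SLC2A3, ANKRD37 and PFKFB4 lie farther right than those of the other members.

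Among the transporters, SLC16A1, the monocarboxylate transporter MCT1, was the member with the smallest p. It stood at 16.1 and 18.6 FPKM in WT dox+, 22.4 and 19.5 FPKM in S34F dox+, 27.2 and 22.2 FPKM in WT dox-, 31.6 FPKM in S34F dox- and 16.9 and 17.7 FPKM in the parental line. The dox- libraries were the highest of the 5 groups, with an overlap between the lowest of them and S34F dox+ replicate 1. The log2 difference was -0.53 ± 0.12 (SE) with an adjusted p of 0.0534 (limma-trend). This adjusted p lay between 0.038 and 0.127 in alternative settings that left out no single library, and it went higher in some that did. SLC16A3, the lactate exporter MCT4, and SLC2A1, the basal glucose transporter GLUT1, spanned 36.3 to 47.3 FPKM and 28.5 to 40.0 FPKM over the 9 libraries with log2 differences of -0.04 and 0.04. SLC2A3, the high-affinity transporter GLUT3, was listed at 0.72 and 3.52 FPKM in WT dox+, 0.40 and 2.28 FPKM in S34F dox+, 0.70 and 0.61 FPKM in WT dox-, 0.13 FPKM in S34F dox- and 1.37 and 0.53 FPKM in the parental line. Its 2 high values were those of the second replicate of each dox+ group, and the log2 difference of 0.84 ± 0.48 (SE) had an adjusted p of 0.313. Its 3 annotated pseudogenes together held 10.2 to 21.0 FPKM, above the gene itself, so its level is uncertain.

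In upper glycolysis, from hexokinase to triose phosphate isomerase, 8 of 9 genes had a log2 difference below 0 and 6 of these an unadjusted p under 0.05, with a median of -0.28. By the same count 9.22% of all genes were lower, and 30.9% of the genes with at least 100 FPKM. HK1, the hexokinase of most tissues, stood at 18.65 and 19.4 FPKM in WT dox+, 16.6 and 14.5 FPKM in S34F dox+, 25.0 and 23.4 FPKM in WT dox-, 24.6 FPKM in S34F dox- and 24.5 and 19.95 FPKM in the parental line. Every dox+ library was below every other library. The log2 difference was -0.48 ± 0.11 (SE) with an adjusted p of 0.0589 (limma-trend). This adjusted p lay between 0.0451 and 0.134 in alternative settings that left out no single library, and it went higher in some that did. HK2, the hexokinase that HIF induces, was at 9.84 to 14.3 FPKM with overlapping groups, so that HK1 made up 52.1% to 62.8% of the FPKM of both hexokinases in dox+ and 63.2% to 66.5% in dox-, a ratio that does not depend on how libraries are scaled.

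GPI, which converts glucose-6-phosphate to fructose-6-phosphate, had 109.8 and 133 FPKM in WT dox+, 119 and 129 FPKM in S34F dox+, 163 and 137 FPKM in WT dox-, 164 FPKM in S34F dox- and 161 and 122 FPKM in the parental line. All dox- libraries were above all dox+ libraries, and the second parental library lay among the latter (log2 difference -0.35 ± 0.13 SE, adjusted p = 0.153). The phosphofructokinases catalyse the committed step, and PFKP was the most abundant of the 3 in every library at 49.9% to 55.4% of their summed FPKM. PFKM, the muscle form, had 12.5 and 13.8 FPKM in WT dox+, 8.22 and 12.7 FPKM in S34F dox+, 15.25 and 11.7 FPKM in WT dox-, 19.65 FPKM in S34F dox- and 13.1 and 13.5 FPKM in the parental line. The extremes were 2 libraries of the S34F line, and the groups of the WT line overlapped. Its log2 difference was -0.03 ± 0.21 (SE) in the WT line and -0.88 ± 0.26 (SE) in the S34F line, where dox- is 1 library, and the difference between the lines had an unadjusted p of 0.0374 and an adjusted p of 1. PFKL, the liver form, spanned 29.2 to 36.2 FPKM with a log2 difference of -0.0037 ± 0.09 (SE).

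ALDOA, the main aldolase, was the third most abundant member, at 1119 and 1105 FPKM in WT dox+, 1195 and 1059.87 FPKM in S34F dox+, 1362 and 1306 FPKM in WT dox-, 1318 FPKM in S34F dox- and 1489 and 1282 FPKM in the parental line. The 4 dox+ libraries were the lowest of the 9. The log2 difference was -0.25 ± 0.09 (SE) with an adjusted p of 0.141. ALDOC, the brain form, supplied under 1% of the aldolase FPKM in every library, since ALDOA held 99.2% to 99.7%. TPI1, which interconverts the triose phosphates, was at 276 to 309.9 FPKM in dox+ and 351 to 388 FPKM in dox- (log2 difference -0.30 ± 0.11 SE, adjusted p = 0.141).

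Of the PFKFB enzymes, which set the level of the phosphofructokinase activator fructose-2,6-bisphosphate, PFKFB3 had 39.2 and 40.7 FPKM in WT dox+, 37.1 and 40.4 FPKM in S34F dox+, 49.4 and 42.35 FPKM in WT dox-, 41.5 FPKM in S34F dox- and 67.5 and 43.6 FPKM in the parental line. The dox+ libraries were the lowest 4, by a narrow margin. The log2 difference of -0.15 ± 0.16 (SE) was smaller than its error. PFKFB4, a hypoxia-induced form, had 3.04 and 2.18 FPKM in WT dox+, 2.40 and 2.28 FPKM in S34F dox+, 1.38 and 2.14 FPKM in WT dox-, 1.12 FPKM in S34F dox- and 2.71 and 2.73 FPKM in the parental line. Its dox- libraries were the lowest 3 and did not overlap with dox+ (log2 difference 0.52 ± 0.21 SE, adjusted p = 0.182). PFKFB2 spanned 8.47 to 12.4 FPKM.

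In lower glycolysis, from glyceraldehyde phosphate to pyruvate, 5 of 6 genes were below 0, 4 of them at an unadjusted p under 0.05 (9.22% of all genes and 30.9% of those with at least 100 FPKM), with a median of -0.25. GAPDH, the most abundant member and a common reference gene, stood at 2214 and 2196 FPKM in WT dox+, 2227 and 2131 FPKM in S34F dox+, 2588 and 2685 FPKM in WT dox-, 2655 FPKM in S34F dox- and 2633 and 2688 FPKM in the parental line. The 4 dox+ libraries lay close together and below the other 5. The log2 difference was -0.27 ± 0.07 (SE) with an adjusted p of 0.0708 (limma-trend). This adjusted p lay between 0.0452 and 0.157 in alternative settings that left out no single library, and it went higher in some that did. Its 58 annotated pseudogenes together reached at most 1.15% of its level.

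PKM, the pyruvate kinase that ends glycolysis, had 1403 and 1390.03 FPKM in WT dox+, 1279 and 1227 FPKM in S34F dox+, 1593 and 1628 FPKM in WT dox-, 1610.03 FPKM in S34F dox- and 1695 and 1449 FPKM in the parental line. All dox+ libraries were below all others, and those of the S34F line were the lowest 2. The log2 difference was -0.28 ± 0.08 (SE) with an adjusted p of 0.0927. ENO1, the main enolase, had 958 and 1019 FPKM in WT dox+, 943 and 849 FPKM in S34F dox+, 1397 and 1161 FPKM in WT dox-, 1282 FPKM in S34F dox- and 1299 and 970.35 FPKM in the parental line. Here too dox+ and dox- did not overlap, while the second parental library fell among the dox+ values. Its log2 difference of -0.44 ± 0.13 (SE) had an adjusted p of 0.0913. PGK1, the first ATP-forming enzyme of the pathway, was at 188 to 202 FPKM in dox+ and 215 to 243 FPKM in dox- (adjusted p = 0.302), and PGAM1, the phosphoglycerate mutase, at 132 to 140.18 FPKM and 155 to 164 FPKM (adjusted p = 0.117). PGAM1 is less certain, because its 13 annotated pseudogenes reached 15.7% of its level in S34F dox+ replicate 2. ENO2, the neuronal enolase, was at 6.16 to 11.2 FPKM with overlapping groups.

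**Figure D3:**
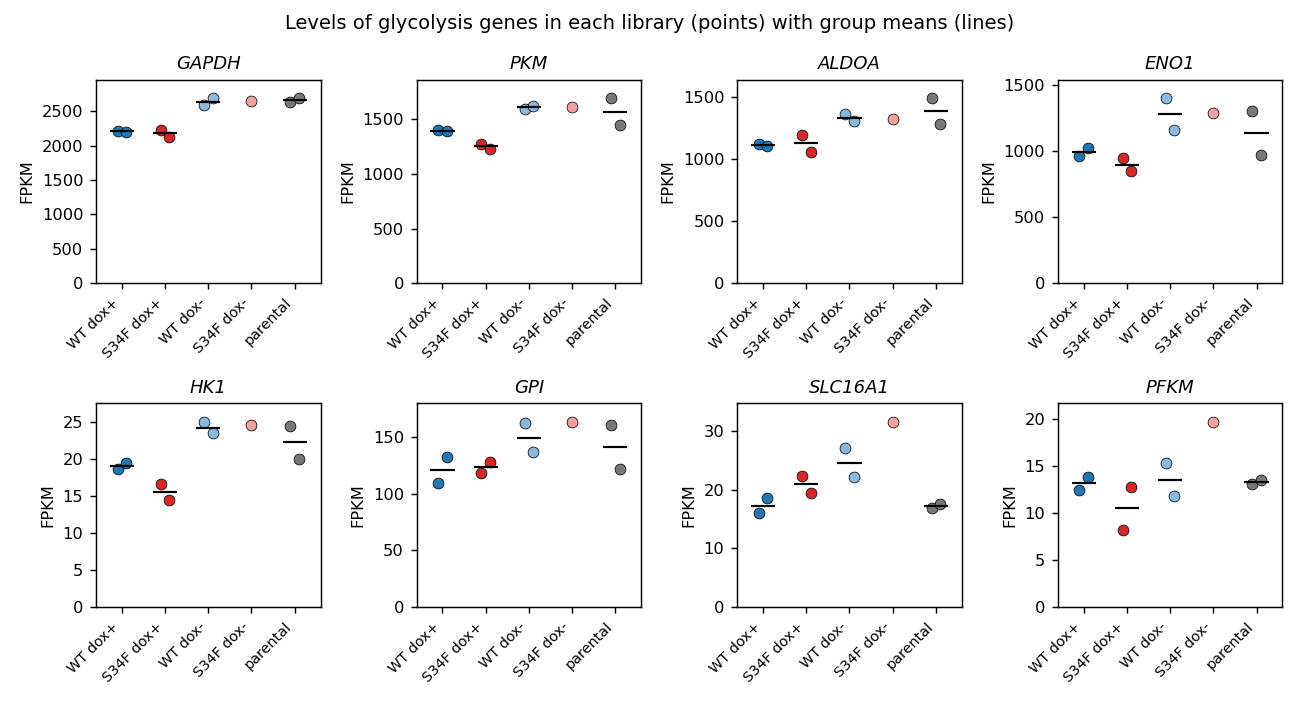
FPKM (y axes, from 0) of 8 glycolysis and lactate transport genes in each library (points) of the 5 groups (x axes), with lines at the means of groups of 2. For GAPDH, PKM, ALDOA, ENO1, HK1 and GPI every dox+ point lies below every dox- point, and for SLC16A1 the parental points lie as low as those with doxycycline.

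Both lactate dehydrogenase subunits were lower without overlap. LDHA, the muscle subunit, was at 609.84 to 700.11 FPKM in dox+ and 711 to 837 FPKM in dox- (log2 difference -0.29 ± 0.16 SE, adjusted p = 0.311), with the parental libraries at both ends of the 9 (942 and 589.65 FPKM). LDHB, the heart subunit, was at 373 to 481 FPKM and 486 to 556 FPKM (log2 difference -0.26 ± 0.09 SE, adjusted p = 0.136). LDHA made up 57.7% to 62.1% of their sum in dox+ and 59.4% to 61.6% in dox-, so the share overlapped. The pyruvate dehydrogenase kinases, which inhibit pyruvate dehydrogenase, leaned the other way. PDK1 stood at 8.47 and 8.39 FPKM in WT dox+, 6.02 and 6.32 FPKM in S34F dox+, 4.70 and 6.22 FPKM in WT dox-, 5.35 FPKM in S34F dox- and 6.45 and 13.0 FPKM in the parental line. The second parental library was the highest, the WT dox+ libraries came next, and the log2 difference of 0.37 ± 0.23 (SE) had an adjusted p of 0.352. PDK3 spanned 6.19 to 11.1 FPKM, with a log2 difference of 0.33 ± 0.16 (SE).

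Of the 3 oxygen sensing genes, 1 had a log2 difference below 0 and none an unadjusted p under 0.05. HIF1A had 171 and 189.61 FPKM in WT dox+, 209 and 166 FPKM in S34F dox+, 186 and 192 FPKM in WT dox-, 236 FPKM in S34F dox- and 166 and 168 FPKM in the parental line. Its highest value was the single S34F dox- library, the values of both dox+ groups and of WT dox- overlapped, and the 2 parental libraries lay below both WT groups (log2 difference -0.20 ± 0.10 SE, adjusted p = 0.252). HIF activity is set mostly at the protein, which was not measured here. EGLN1 and EGLN3, prolyl hydroxylases that act on HIF1A, spanned 38.5 to 50.6 FPKM and 2.48 to 6.27 FPKM.

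Of the 10 other hypoxia-induced genes 7 were tested, with a median log2 difference of 0.02 and 3 of 7 below 0. ANKRD37, an ankyrin repeat gene known as a HIF target, stood at 4.96 and 6.08 FPKM in WT dox+, 4.51 and 3.78 FPKM in S34F dox+, 2.21 and 1.99 FPKM in WT dox-, 3.14 FPKM in S34F dox- and 6.05 and 4.0 FPKM in the parental line. The dox- libraries were the lowest 3, and the parental line lay in the dox+ range. Its log2 difference of 0.69 ± 0.19 (SE) had an adjusted p of 0.0813. NDRG1, a gene known for its induction by hypoxia, had 20.1 and 16.5 FPKM in WT dox+, 27.6 and 24.5 FPKM in S34F dox+, 16.48 and 18.4 FPKM in WT dox-, 15.7 FPKM in S34F dox- and 21.4 and 20.1 FPKM in the parental line. S34F dox+ was above all other libraries, and WT dox+ overlapped with WT dox- (log2 difference 0.38 ± 0.11 SE, adjusted p = 0.104). VEGFA, the angiogenic factor, BNIP3 and BNIP3L, mitophagy receptors, and P4HA1, a collagen prolyl hydroxylase subunit, had log2 differences of 0.07, -0.06, 0.02 and -0.04. The 3 genes that were not tested, CA12 (a carbonic anhydrase), ADM (adrenomedullin) and ANGPTL4 (a lipoprotein lipase inhibitor), were listed at 0.11 to 1.32, 0.00 to 0.64 and 0.00 to 1.73 FPKM.

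Each line was also compared within itself, in the same fit of all 5 groups. In the WT line 3 members were lower at an unadjusted p under 0.05 (SLC16A1, ALDOA and GAPDH, background 5.59%) and 1 was higher (ANKRD37, background 8.8%). In the S34F line 9 were lower (background 5.11%) and 1 was higher (NDRG1, background 10.6%). No member passed an adjusted p of 0.05 in limma-trend in either line, where 0.00659% of all genes did in each direction in the WT line, and 0.0856% lower and 0.198% higher in the S34F line. With only the groups of the WT line in the fit, 9 members were lower and 2 higher at the same unadjusted p (948 and 1545 of 15179 genes). In such a fit of the S34F line, where dox- is 1 library, fewer members were lower than in that of the WT line. They were also fewer than for the S34F line in the fit of all 5 groups. These counts therefore do not rank the lines. For ENO1 the log2 difference was -0.37 ± 0.16 (SE) in the WT line and -0.52 ± 0.19 (SE) in the S34F line, for HK1 -0.33 ± 0.14 and -0.63 ± 0.18, for GAPDH -0.26 ± 0.09 and -0.29 ± 0.11, and for PKM -0.21 ± 0.10 and -0.36 ± 0.13. The difference between the lines was tested for each member, and the adjusted p was 1 for all 36 (background 0.00659% above 0 and 0.0198% below 0). At an unadjusted p under 0.05 it was below 0 for PFKM (background 1.21%) and above 0 for NDRG1 (0.63 ± 0.23 SE, background 2.21%).

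The second question was whether S34F differed from wild-type U2AF1 under induction. The WT dox+ and S34F dox+ libraries also differ in subclone and in total U2AF1 level, which cannot be told apart from the substitution. No member passed the adjusted threshold in S34F dox+ against WT dox+ (limma-trend, background 0.0329% lower and 0.0198% higher). At an unadjusted p under 0.05, 1 member was higher (NDRG1, background 4.01%) and none was lower (background 2.77%). NDRG1 averaged 26.1 ± 2.19 FPKM (SD, n = 2) in S34F dox+ and 18.3 ± 2.53 FPKM (SD, n = 2) in WT dox+. Its log2 difference was 0.49 ± 0.14 (SE) with an adjusted p of 0.558. GAPDH, ALDOA, LDHA and PGK1 differed by -0.02, 0.02, -0.02 and 0.03 between the same groups. Without doxycycline, S34F dox- against WT dox- gave no member at an unadjusted p under 0.05 in either direction (background 1.63% lower, 1.48% higher) and none at an adjusted p under 0.05 in limma-trend (background 0.0198% lower, 0.0264% higher), with 1 library in S34F dox-.

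The transduced lines without doxycycline were then compared with the parental line. The one member that passed the threshold was CA9, the carbonic anhydrase of the plasma membrane. CA9 had 40.3 and 31.7 FPKM in the parental line, 7.35 and 6.86 FPKM in WT dox-, 8.42 FPKM in S34F dox-, 6.33 and 6.95 FPKM in WT dox+ and 7.65 and 4.28 FPKM in S34F dox+. Both parental libraries stood well above all 7 transduced libraries, and those 7 did not separate by line or by doxycycline. The log2 difference was -2.18 ± 0.24 (SE) for WT dox- against parental with an adjusted p of 0.0356 in limma-trend (background 0.0593% lower and 0.0395% higher), and -1.96 ± 0.30 (SE) for S34F dox- against parental with an adjusted p of 0.106 (background 0.0593% lower and 0.0527% higher). The first adjusted p lay between 0.00916 and 0.291 over the alternatives, and it was above 0.05 without any 1 of the 4 libraries compared. SLC34A2 and ROS1 were also higher in the parental libraries, with 115 and 166 FPKM and 26.1 and 37.8 FPKM, against at most 70.5 and 17.1 FPKM in the transduced lines. Whether this has a part in the CA9 difference was not tested.

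Against the parental line, 4 members of WT dox- were lower at an unadjusted p under 0.05 (background 6.54%), namely CA9, ANKRD37 (log2 difference -0.94 ± 0.24 SE), VEGFA (-0.48 ± 0.19) and PDK1 (-0.67 ± 0.29), and SLC16A1 was higher (0.48 ± 0.15, background 5.79%). For S34F dox- 2 members were lower (CA9 and PFKFB4, background 4.84%) and 3 were higher (SLC16A1, HIF1A and PFKFB2, background 4.1%). The 2 comparisons share the parental libraries. GAPDH and PKM, by contrast, differed by -0.01 and 0.04 in WT dox- and by -0.003 and 0.04 in S34F dox-.

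**Figure D4:**
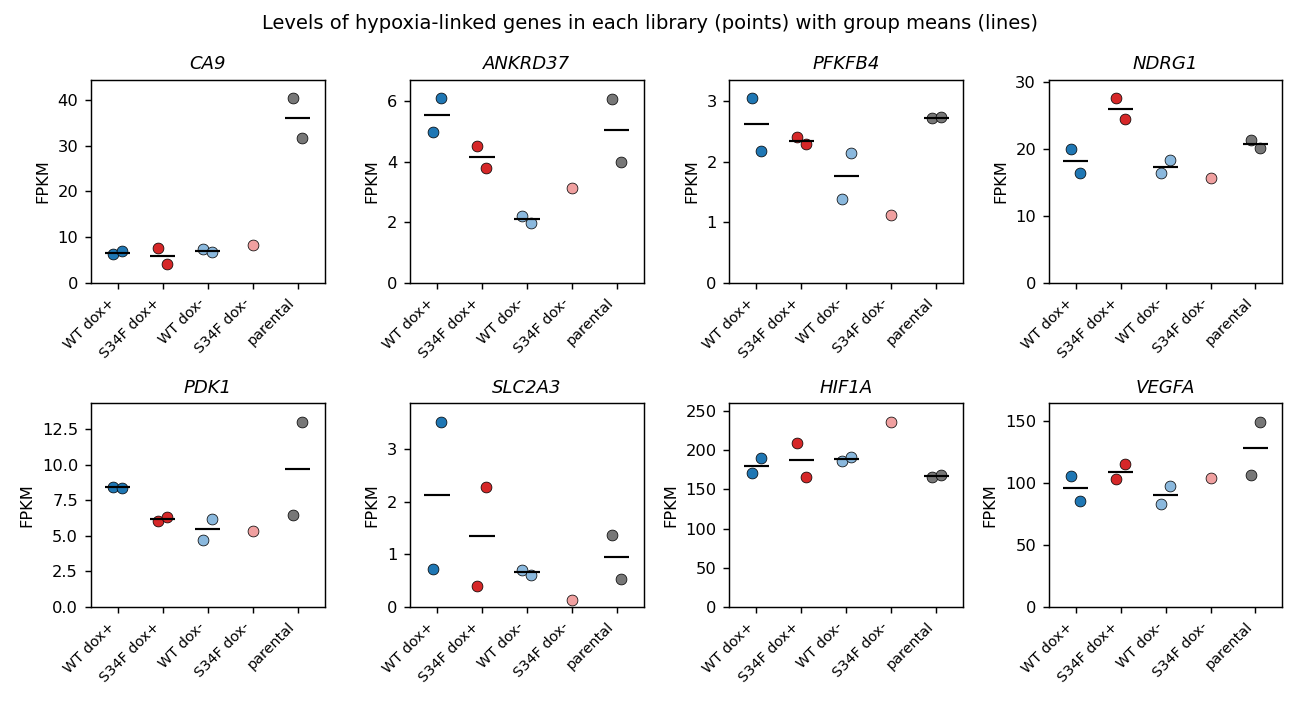
FPKM (y axes, from 0) of 8 hypoxia-linked genes in each library (points) of the 5 groups (x axes), with lines at the means of groups of 2. CA9 is at 31.7 and 40.3 FPKM for the parental points and at most 8.42 FPKM elsewhere, and ANKRD37 and PFKFB4 are lowest in the dox- libraries.

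Further genes of the pathways were counted from a list of 91, of which 88 had an entry and 64 were tested. In the mean of both lines, none of the 23 tested genes of glycolysis and pyruvate use passed an adjusted p of 0.05 in limma-trend, and at an unadjusted p under 0.05, 2 were lower (background 9.22%) and 2 higher (background 15.9%). Of 41 tested genes of the HIF pathway 1 was higher at an adjusted p under 0.05, where 2.79% of all genes were. At an unadjusted p under 0.05, 7 were higher (background 15.9%) and 1 lower (background 9.22%), so the counts of higher genes were near the background. The gene that passed was DDIT4, an inhibitor of mTORC1 signaling that hypoxia and other stresses induce. DDIT4 had 69.7 and 56.8 FPKM in WT dox+, 62.7 and 60.6 FPKM in S34F dox+, 37.1 and 49.9 FPKM in WT dox-, 27.2 FPKM in S34F dox- and 85.7 and 98.1 FPKM in the parental line. Like ANKRD37 and PFKFB4, it was lowest in the dox- libraries, and here the parental line was the highest. DDIT4 rose with doxycycline by 0.84 ± 0.13 (SE) on the log2 scale with an adjusted p of 0.0252 in limma-trend, which lay between 0.0115 and 0.121 over the alternatives. It was above 0.05 with no minimum FPKM, with only the groups compared, and without any 1 of the dox+ libraries or WT dox- replicate 1. Against the parental line its log2 difference was -1.71 in S34F dox-, which is 1 library, with an adjusted p of 0.041 and -1.07 in WT dox- with an adjusted p of 0.103. The first lay between 0.00917 and 0.587 over the alternatives and was above 0.05 without either parental library, with only the groups compared, with the replicate block (0.144) and under 3 other settings. Against the parental line, no tested gene of glycolysis and pyruvate use passed the adjusted threshold, and the counts at an unadjusted p under 0.05 were 2 lower for WT dox- and 5 lower for S34F dox-, with none higher. Of the HIF pathway genes, 9 were lower for WT dox- and 8 for S34F dox- by the same count, with none higher. Over all genes 6.54% were lower and 5.79% higher for WT dox-, and 4.84% and 4.1% for S34F dox-. Between S34F dox+ and WT dox+ none of these genes passed the adjusted threshold. At an unadjusted p under 0.05, 6 of the 41 HIF pathway genes were higher in S34F dox+ (background 4.01%) and 1 was lower (background 2.77%), and of the 23 genes of glycolysis and pyruvate use 0 were higher and 0 lower.

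The last question was whether the splicing of these transcripts differed between S34F and wild-type. The MISO comparison of S34F with wild-type gives 1 percent spliced in (PSI) value per condition and event, without replicates, so there is no error between libraries and no test. Its events were counted as changed at a PSI difference of at least 0.10, a Bayes factor of at least 5 and at least 10 reads over both conditions. Of 324 events listed for 38 of the 39 genes, 10 under SLC16A3 lay on the opposite strand and were set aside. For 6 genes the strand was not available, and their events were kept unchecked. Of the 303 others with enough reads, in 36 genes, 2 changed (0.66%), against 1.18% of all events. Both were skipped exons with higher inclusion in S34F, out of 144 skipped exons of the members with enough reads. Over all genes, 0.701% of the skipped exons with enough reads had higher inclusion by this rule.

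The exon of PFKFB3 whose 3′ splice site lies at chr10:6264818, spliced from 6263490 and skipped to 6265921 (coordinates as in the tables, for which the labels name GRCh37/hg19), had PSI values of 0.54 with S34F and 0.16 with wild-type U2AF1. The Bayes factor was 14.1 over 671 and 1082 reads. The exon of HIF1A with its 3′ splice site at chr14:62207223, spliced from 62205091 and skipped to 62207473, had PSI values of 0.95 with S34F and 0.79 with wild-type U2AF1 and a Bayes factor of 13.7 over 2982 and 4365 reads. The HIF1A event is also listed under HIF1A-AS2 and RP11-618G20.1, which overlap it. In level, PFKFB3 and HIF1A differed by -0.04 and 0.05 on the log2 scale between S34F dox+ and WT dox+. An exon of P4HA1 had the larger PSI difference, 0.70 with S34F against 0.27 with wild-type U2AF1, but its Bayes factor of 2.27 over 344 and 473 reads did not meet the rule.

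**Figure D5:**
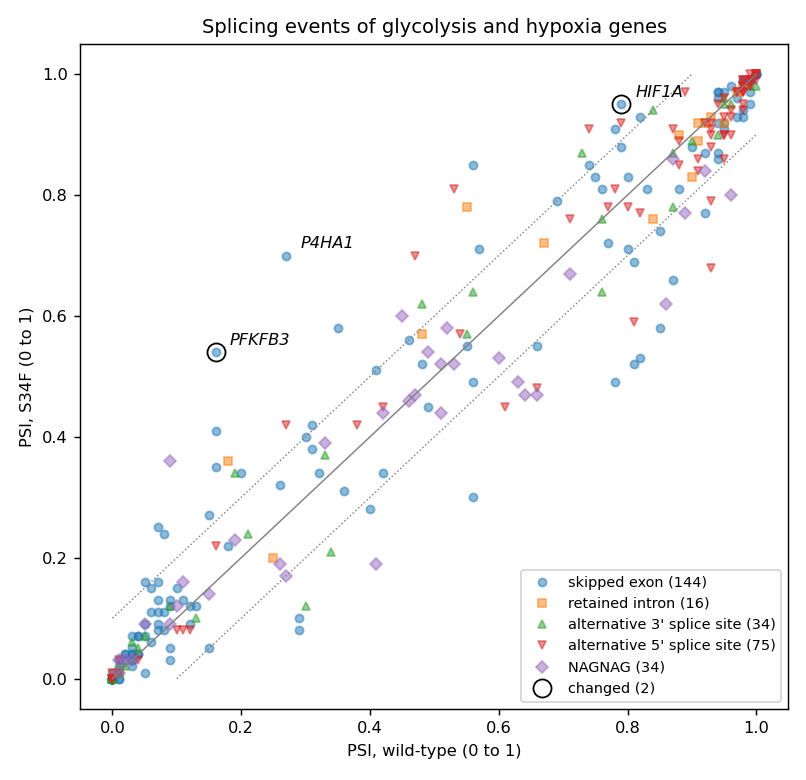
PSI in S34F (y axis) against PSI in wild-type (x axis) for the 303 splicing events of the members with enough reads, by type of event (symbols), with dotted lines at a difference of 0.10. The 2 changed events, in PFKFB3 and HIF1A, are circled, and 64 events lie 0.10 or more apart.

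Of the 303 events, 64 had PSI values at least 0.10 apart, while 33 had a Bayes factor of 1 or more. PKM gives the best covered values. Its mutually exclusive exons distinguish the M1 form of pyruvate kinase from the M2 form that tumor cells favor, and the M2 exon (3′ splice site at chr15:72494961, minus strand) had PSI values of 0.99 and 0.99 (S34F and wild-type) over 33103 and 55474 reads. The M1 exon (chr15:72495529) had 0.04 and 0.03 over 28663 and 47947 reads. The Bayes factor was 0 for both. In LDHA the event with the largest Bayes factor, an exon with its 3′ splice site at chr11:18426996, had PSI values of 0.79 with S34F and 0.69 with wild-type U2AF1 and a Bayes factor of 1.47.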

How the data were processed

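Total RNA of 9 libraries was sequenced by the authors in paired-end reads with a stranded kit and, per the submitters' processing notes and the study's methods, aligned with STAR 2.3.0 and quantified per gene with RSEM 1.2.29 (GRCh37/hg19). The deposited FPKM and TPM values are RSEM's normalized estimates, and FPKM was used, with TPM as an alternative. Without deposited gene counts no count test was possible, and the depth is unknown. FPKM and TPM are shares of a total, so that genes gained in a library lower all others. For splicing, the authors deposited MISO results with 1 PSI fraction, read counts and a Bayes factor score per event and condition, the first condition being taken as S34F from the tables' naming. How replicates entered MISO is not given in the sources used here. The U2AF1 iCLIP samples are not analysed here.

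The 15179 genes whose mean over the libraries reached 1 FPKM were tested on log2(FPKM + 1) with limma 3.58.1 in R 4.3.3 (limma-trend, two-sided), in 1 fit of 5 groups that share the spread, with Benjamini-Hochberg adjustment over all genes tested and 8 comparisons. A fold change on this scale understates that of low genes. The fit was tested on simulated data. Values in every library are given for members with an adjusted p under 0.05, the 10 largest differences in the mean of both lines, the 3 highest levels, HIF1A and members with a changed splicing event. VEGFA in a plot and the promoters shown were chosen after their values were seen. Members and lists were chosen with earlier results of these data known. Promoter windows are from RefSeq. Alternatives covered the pseudocount, the minimum, scaling, TPM, protein-coding genes only, pseudogenes, a replicate block, the groups in the fit and each library left out.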

Additional observations from a re-analysis of the deposited data

How the results depend on the processing

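Of 142 recomputed counts, 122 stayed within 1.5 times of the value reported, but 98 of these were a 0 that stayed 0. No log2 difference of the genes given in full reversed in 341 recomputations. In the mean of both lines the number of members with an adjusted p under 0.05, 0 as reported, was 2 at a minimum of 5 FPKM, 3 with median-ratio scaling, 2 with TPM and 3 with protein-coding genes only. The genes were SLC16A1, HK1 and GAPDH. The number lower at an unadjusted p under 0.05, 12 as reported (1400 of all 15179 genes), was 6 with quantile normalization (1696 of all genes). Under quantile normalization the median log2 difference was -0.10 over the members and -0.04 over all genes. The number was 5 with FPKM rescaled to the protein-coding sum (718 of all genes), a setting chosen after seeing the data. It also fell in some settings that left out a single library, among them WT dox+ replicate 1 and WT dox- replicate 1. The number of members lower without overlap, 13 (9.76% of all genes), was 8 with the protein-coding sum (5.33%) and 14 with median-ratio scaling (13.0%). It was 13 without S34F dox+ replicate 2 (12.0%), but leaving out a dox+ library cannot lower this count. All genes called lower went from 165 to 279 with median-ratio scaling and to 85 with the protein-coding sum, and those called higher from 424 to 363 and to 682.

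For WT dox- against parental the single call, CA9, became 0 with no minimum FPKM, with quantile normalization, with only the groups compared, and without each library in turn (0 to 0). For S34F dox- against parental CA9 made 1 call with protein-coding genes only, where 0 were reported. Splicing events changed were 0 at a Bayes factor of 20 and 1, PFKFB3, at a PSI difference of 0.20. In the other comparisons leaving out libraries gave 0 to 0 calls. The causes were not tested.

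Replicate numbers are shared between groups, and deviations of same-numbered libraries from their group means correlated at -0.076 to 0.037. These correlations cannot show whether same-numbered libraries were prepared together. Replicate 2 listed more genes at 1 FPKM or above than replicate 1 in WT dox+ (17716 against 16053) and S34F dox+ (20896 against 15736). It listed fewer in WT dox- (14485 against 14490) and in the parental line (14533 against 14688). With the replicate block, the members lower at an unadjusted p under 0.05 in the mean of both lines stayed 12, the call of CA9 in WT dox- against parental was lost (0 calls), and all genes called in the mean of both lines went from 424 higher and 165 lower to 197 and 45.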

Other observations

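The 10 splicing events set aside under SLC16A3 were on the minus strand, where they are also listed under CSNK1D, a casein kinase gene, while SLC16A3 lies on the plus strand. One of them met the rule for a change, an alternative 5′ splice site at chr17:80203852 with PSI values of 0.62 (S34F) and 0.72 (wild-type) over 2628 and 3751 reads, so it would be counted for the lactate exporter if gene names alone were used. This was noticed after the values were seen.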
